A study of Mus musculus with 6 samples.

Results

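Sulfotransferases transfer a sulfonate group from the donor 3′-phosphoadenosine 5′-phosphosulfate (PAPS) to another molecule, and 6 mouse genes of this family, *Sult1a1*, *Sult1d1*, *Sult1e1*, *Sult3a1*, *Sult2b1* and *Sult4a1*, were followed in the livers of LIRKO and Flox mice. Members were taken by gene symbol, as every probe set that the platform annotation gives to one of these genes alone. Of the 6 genes, 5 had such a probe set, *Sult1a1* had 2, and the 6 probe sets were compared among 12422 in all. No probe set carried the symbol of *Sult1e1*, alone or with other genes, so that this estrogen sulfotransferase was not measured here. The genes were chosen by a search in which the difference between LIRKO and Flox on these same arrays was in view. Their differences are therefore given as a description without p-values, and the counts of members past a threshold support nothing by themselves.

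In the cytosol, these enzymes make hormones, neurotransmitters, drugs and other small molecules more water soluble and often inactivate them, and in liver they form part of phase II detoxification. *Sult1a1* encodes the main phenol sulfotransferase of liver, and *Sult1d1* encodes an enzyme that acts on catechols such as dopamine. *Sult1e1* encodes estrogen sulfotransferase, *Sult2b1* encodes an enzyme for hydroxysteroids and cholesterol that is best known from skin, and *Sult3a1* encodes an enzyme known for sulfonating amines. *Sult4a1* is known as a brain gene whose product has no settled substrate. Several sulfotransferase genes of mouse liver are expressed differently in males and females, and nuclear receptors regulate many of them.

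Liver RNA came from non-fasted male mice of 2 to 3 months on normal chow, with 3 Flox arrays (genotype IR flox/flox albumin:CRE -) and 3 LIRKO arrays (genotype IR flox/flox albumin:CRE +). The insulin receptor gene *Insr* is floxed in both groups, on a mixed genetic background, and in LIRKO the albumin promoter drives Cre recombinase, which deletes the receptor in hepatocytes. RNA of 2 to 3 mice was pooled for each Affymetrix mouse genome array, and the replicates are therefore pools rather than single animals. Values are on the log2 scale after robust multichip averaging (RMA), a difference of 1 is a doubling, and the number of arrays limits the precision.

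LIRKO 2 and LIRKO 3 stood apart from the other 4 arrays. Among 10 equal groups of probe sets ordered by their Flox mean, the median difference from Flox on these arrays went from 0.23 and 0.15 in the dimmest group to -1.09 and -0.89 in the brightest, whereas on LIRKO 1 it lay between -0.03 and 0.00 in all 10. The 9 hybridization controls had a median difference from Flox of 1.08 on LIRKO 2 and 0.96 on LIRKO 3, against -0.25 on LIRKO 1. The deleted gene itself, *Insr*, read 5.45, 5.22 and 5.38 on the Flox arrays and 5.37, 5.99 and 6.06 on the LIRKO arrays. No LIRKO array lay below all Flox arrays, and whether the probe set lies in the deleted part is not known here. All 7 measured hepatocyte markers lay at percentile 93.3 or higher of the probe sets in Flox, but their mean level went from 12.3 to 12.4 on the Flox arrays and 12.4 on LIRKO 1 to 11.3 on LIRKO 2 and 11.5 on LIRKO 3. *Ttr*, which encodes the plasma carrier transthyretin, was lower on every LIRKO array, at -0.61, -2.76 and -2.28, and was the lowest of the 7 on LIRKO 1. On that array *Tat* was at 0.50, *Cps1* at 0.34, *Apob* at 0.29, *Hnf4a* at 0.14, *Apoa1* at 0.03 and *Alb* at -0.05. The median of the 7 hepatocyte markers there was 0.14. Over these and the 36 probe sets for markers of 6 other cell types, none passed with all arrays. Without LIRKO 1, 5 of the 7 passed, all as lower, and 11 of the 36 passed (9 higher, 2 lower). Of all probe sets 49.1% then passed in either direction (2783 of 12422 as higher, 3312 as lower). The largest difference among the marker probe sets that passed was that of the stellate cell marker *Reln* on 161231_r_at, at -0.03 on LIRKO 1 and at 3.22 and 2.72 on LIRKO 2 and LIRKO 3. The other *Reln* probe set, 96591_at, disagreed, at 1.05 on LIRKO 1 and at -0.05 and 0.47 on LIRKO 2 and LIRKO 3. Values on LIRKO 1 are given beside the results below, and the part of the shift of LIRKO 2 and LIRKO 3 in these results, and that of the markers, was not tested.

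The sequence before the start of *Sult1d1* is shown because this gene had the largest difference among the members, and that of *Sult1a1* because its brighter probe set lay above Flox on LIRKO 1 and below it on the other LIRKO arrays. Both are the 250 bases before the RefSeq start on GRCm38.p6, 5′ to 3′ on the minus strand of the chromosome, at chr5:87569007-87569256 for *Sult1d1* and at chr7:126676419-126676668 for *Sult1a1*. The third sequence is a site of 29 bases past the start of *Sult1d1*, at chr5:87568957-87568985, also on the minus strand.
Sult1d1 before the start: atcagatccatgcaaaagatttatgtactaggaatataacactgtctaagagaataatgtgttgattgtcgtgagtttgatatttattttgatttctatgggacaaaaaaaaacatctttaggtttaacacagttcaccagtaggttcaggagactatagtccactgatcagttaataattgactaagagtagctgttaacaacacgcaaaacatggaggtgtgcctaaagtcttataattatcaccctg
Sult1a1 before the start: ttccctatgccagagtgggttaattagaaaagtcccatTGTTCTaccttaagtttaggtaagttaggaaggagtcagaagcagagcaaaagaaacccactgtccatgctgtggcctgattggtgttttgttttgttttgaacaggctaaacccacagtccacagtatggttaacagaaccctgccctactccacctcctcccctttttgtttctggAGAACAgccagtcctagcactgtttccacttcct
Sult1d1 past the start: attttcagtagGTAAACAggggagcggcc
Capitals mark matches, on either strand, to TGTTTAC, the core motif of forkhead factors such as FoxO1, and to AGAACA, a half-site of the glucocorticoid receptor. TGTTTAC has 1 match in the 300 bases around the *Sult1d1* start, on the strand opposite to the gene with its first base at position 33, and none around the *Sult1a1* start, and 3.65% of the 32851 promoters in the same table hold it. AGAACA has 2 matches before the *Sult1a1* start and none for *Sult1d1*, and 19.0% of all promoters hold it. The other motifs searched were AGGTCA, a nuclear receptor half-site held by 16.3% of promoters, which matched neither gene, and TATAAA, held by 13.6%, which matched *Sult1d1* on the opposite strand at position 6 past the start, outside the bases printed. No overlap between matches of different motifs occurred in these sequences. They were kept from 14 motifs looked at after the values of the genes were known, and a match is not a binding site. Of the 6 genes, 5 matched the promoter table, and *Sult4a1* did not.

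*Sult1d1*, the catechol sulfotransferase gene, read 6.92 on Flox 1, 6.86 on Flox 2 and 6.91 on Flox 3, and 8.65 on LIRKO 1, 7.90 on LIRKO 2 and 8.37 on LIRKO 3 (probe set 160537_at). Every LIRKO array was higher than every Flox array, and the gap between the groups was wider than the range within LIRKO. The Flox mean was 6.90 ± 0.0329 (SD, n = 3), against 8.30 ± 0.376 (SD, n = 3) for LIRKO, a log2 fold change of 1.40 (standard error 0.195), or 2.65-fold. On LIRKO 1 alone the difference from Flox was 1.75, or 3.35-fold, and on LIRKO 2 and LIRKO 3 it was 1.00 and 1.47. Probe sets of the same level in Flox shifted little on these arrays, by a median of -0.01, 0.02 and 0.01. Relative to all other probe sets on the same array, *Sult1d1* lay between percentiles 54.7 and 56.8 on the Flox arrays and at percentiles 85.6, 79.0 and 85.4 on LIRKO 1, LIRKO 2 and LIRKO 3. The gene was thus of middle brightness in Flox and bright on each LIRKO array. As these are whole livers, more RNA per cell and more cells with the RNA cannot be told apart.

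**Figure D1:**
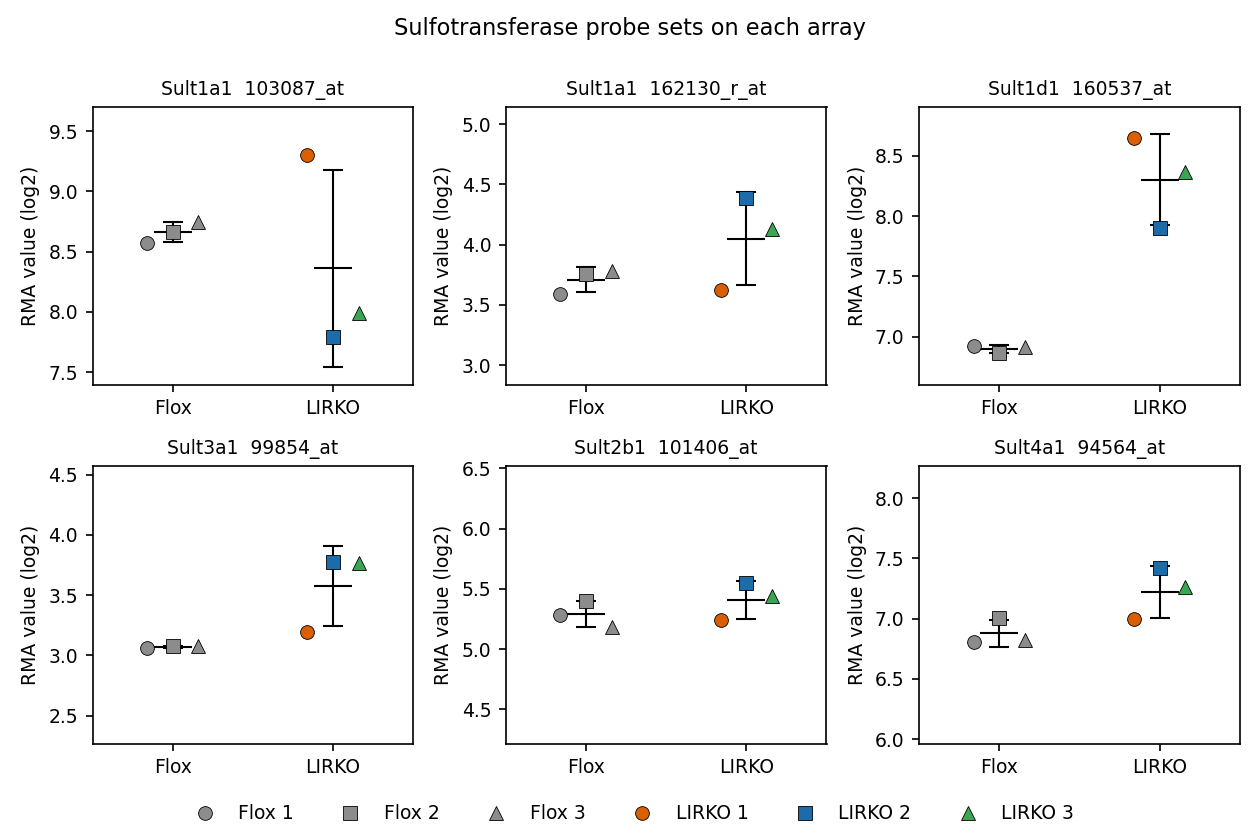
Deposited RMA value (log2, vertical axis) of the 6 sulfotransferase probe sets on each array; Flox arrays are in grey and LIRKO arrays in colour, horizontal marks and bars are the mean and SD of 3 arrays, and each panel spans the same log2 range. For *Sult1d1* the LIRKO arrays lie at 7.90 to 8.65 and the Flox arrays at 6.86 to 6.92, while for *Sult1a1* on 103087_at LIRKO 1 lies above the Flox arrays and LIRKO 2 and LIRKO 3 lie below them.

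*Sult1a1*, the phenol sulfotransferase gene, has a bright and a dim probe set, and the LIRKO arrays did not share a direction on either. On 103087_at the gene read 8.58, 8.67 and 8.75 on the Flox arrays, 9.30 on LIRKO 1, 7.79 on LIRKO 2 and 7.99 on LIRKO 3. LIRKO 1 was thus higher than all Flox arrays and the other LIRKO arrays were lower. The Flox mean of 8.66 ± 0.0870 (SD, n = 3) compared with 8.36 ± 0.819 (SD, n = 3) on the LIRKO arrays, a log2 fold change of -0.30 (standard error 0.378), and the spread within LIRKO was larger than this difference, which was -0.04 after cyclic loess between the arrays. The difference from Flox was 0.64 on LIRKO 1, or 1.56-fold, -0.87 on LIRKO 2 and -0.67 on LIRKO 3, where probe sets of the same Flox level had medians of -0.02, -0.47 and -0.38. The probe set lay between percentiles 84.9 and 86.7 on the Flox arrays, and on the 3 LIRKO arrays, in order of number, at 90.9, 76.9 and 79.6. On 162130_r_at, whose name marks a probe set designed under relaxed rules, the gene read 3.59, 3.76 and 3.78 on the Flox arrays and 3.63, 4.39 and 4.13 on the LIRKO arrays. That probe set lay at percentile 6.96 in Flox, among the dimmest, and LIRKO 1 fell inside the Flox range. Its log2 fold change was 0.34 (standard error 0.203), of the opposite sign to that of the bright probe set, and probe sets of its level had medians of 0.23 and 0.15 on LIRKO 2 and LIRKO 3, where it differed from Flox by 0.68 and 0.42.

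*Sult3a1*, the amine sulfotransferase gene, lay near the bottom of the array, at percentile 1.75 in Flox. It read 3.06, 3.08 and 3.07 on the Flox arrays and 3.20, 3.77 and 3.77 on the LIRKO arrays (probe set 99854_at). All LIRKO arrays were higher than all Flox arrays, but on LIRKO 1 the difference was 0.12, and at so low a signal a level close to background cannot be told from none. The log2 fold change was 0.51 (standard error 0.178), or 0.39 after cyclic loess. On LIRKO 2 and LIRKO 3 the differences were 0.70 and 0.69, where probe sets of the same level had medians of 0.23 and 0.15. On each LIRKO array the probe set stayed among the dimmest, at percentiles 2.89, 5.49 and 6.09.

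*Sult2b1*, which encodes the hydroxysteroid sulfotransferase, read 5.29, 5.40 and 5.18 on the Flox arrays and 5.24, 5.55 and 5.44 on the LIRKO arrays (probe set 101406_at). The groups overlapped, and the log2 fold change of 0.12 (standard error 0.131) was smaller than its error and was 0.03 after cyclic loess. On LIRKO 1 the difference was -0.05, and those of 0.26 and 0.15 on LIRKO 2 and LIRKO 3 lay near the medians of 0.18 and 0.12 for probe sets of the same level. *Sult4a1*, the brain gene, read 6.80, 7.003 and 6.82 on the Flox arrays and 6.99, 7.42 and 7.26 on the LIRKO arrays (probe set 94564_at). LIRKO 1 lay just below the highest Flox array, at a difference of 0.12 from the Flox mean, and the other LIRKO arrays lay above all Flox arrays, at 0.54 and 0.38. Its log2 fold change was 0.35 (standard error 0.147), while probe sets of its level had medians of 0.02 and 0.01 on LIRKO 2 and LIRKO 3. Over the 7 probe sets for 4 neuron markers, the mean level was 5.30 to 5.41 on the Flox arrays and 5.48, 5.75 and 5.74 on the LIRKO arrays, and 4 of the 7 were dim. None of the 7 passed with all arrays. Without LIRKO 1, 3 of the 7 passed, all as higher, against 49.1% of all probe sets in either direction (2783 of 12422 as higher, 3312 as lower). The 3 were *Syt1*, *Stmn2* on 95669_g_at and *Tubb3* on 161612_f_at, while the other probe sets of *Stmn2* and *Tubb3* did not pass. The part of these markers in the *Sult4a1* values was not tested.

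**Figure D2:**
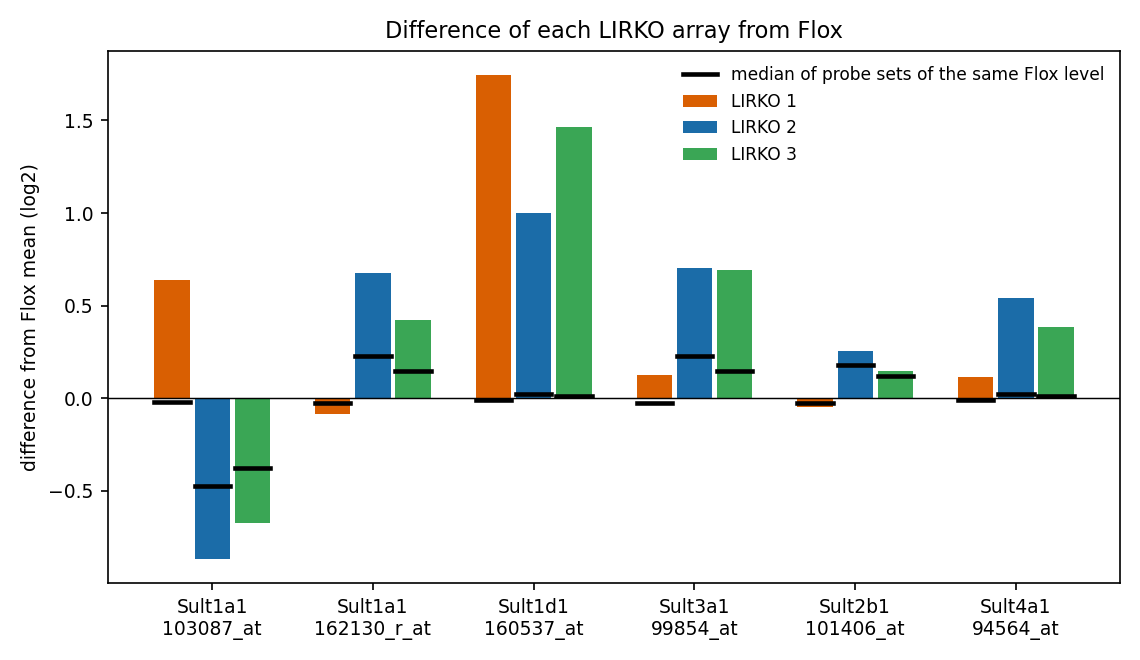
How far each LIRKO array lay from the Flox mean (log2, vertical axis) for the 6 sulfotransferase probe sets; bars are single arrays and black lines are the median difference over probe sets in the same of 10 groups by Flox level. *Sult1d1* stands at 1.75, 1.00 and 1.47 against medians near 0, and *Sult1a1* on 103087_at at 0.64, -0.87 and -0.67.

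Over the family, 5 of the 6 probe sets had a log2 fold change above 0, with a median of 0.34 against 0.01 over all probe sets, and on LIRKO 1 alone 4 of 6 were above Flox, with a median of 0.12 against -0.02. Of the 6, 3 were dim, with a mean over all 6 arrays below the 40th percentile of probe sets: *Sult3a1*, *Sult2b1* and 162130_r_at of *Sult1a1*. In limma with all 6 arrays, 0 of the 6 members passed an adjusted p of 0.05, against 0.129% of all probe sets, and 2 of the 6 had an unadjusted p under 0.05, against 20.9% of all probe sets. All LIRKO arrays were above all Flox arrays for 2 of the 6, *Sult1d1* and *Sult3a1*, against 9.84% of all probe sets, and for none of the 6 were they all below, against 14.9%. The difference of LIRKO 1 from Flox was at least 1 for 1 of the 6, *Sult1d1*, against 0.386% of all probe sets. After cyclic loess between the arrays, *Sult1d1* was the 1 member past the threshold, at a log2 fold change of 1.49, against 0.322% of all probe sets, and after renewed quantile normalization it was again the 1 member, at 1.49, against 0.185%. Without LIRKO 1, 5 of the 6 passed, against 49.1% of all probe sets, and *Sult1a1* then differed by -0.77 on 103087_at and 0.55 on 162130_r_at. Since the genes were chosen with this contrast in view, nothing is read from these counts.

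Among other cytosolic sulfotransferases, 4 genes of a list of 15 were measured, and none passed in either direction in limma (3 of 4 at an unadjusted p under 0.05, against 20.9% of all probe sets). From this and each list below, the up to 3 probe sets with the smallest unadjusted p on these arrays were picked for naming. Their p-values therefore follow a choice made from the same values and support nothing by themselves. *Sult2a2*, of the hydroxysteroid sulfotransferases that act on steroids and bile acids, read 4.11, 4.16 and 3.90 on the Flox arrays and 5.15, 5.24 and 5.79 on the LIRKO arrays. All LIRKO arrays were higher, and LIRKO 1 was higher by 1.10. Its difference of 1.34 had a standard error of 0.194 and, in limma, an adjusted p = 0.117, and without LIRKO 1 it passed at 1.46 (adjusted p = 0.00012 from limma). The probe set was dim in Flox, at percentile 10.2, and the genes of the *Sult2a* family are alike in sequence, so that it may read several of them. *Sult1b1*, which encodes a sulfotransferase for thyroid hormones, is the direct neighbour of *Sult1d1* in the RefSeq gene order, with *Sult1e1* on the other side. It read 7.30, 7.32 and 7.55 on the Flox arrays and 7.07, 6.94 and 6.69 on the LIRKO arrays, so that every LIRKO array was lower, opposite to its neighbour. Its difference of -0.49 had a standard error of 0.147 and, in limma, an adjusted p = 0.237, it was -0.32 on LIRKO 1, and without LIRKO 1 it passed as lower (adjusted p = 0.0055 from limma). *Sult5a1* read 8.002, 7.73 and 8.33 on the Flox arrays and 7.64, 5.89 and 5.77 on the LIRKO arrays. Its difference of -1.59, with a standard error of 0.492 and an adjusted p = 0.237 in limma, was made mostly by LIRKO 2 and LIRKO 3, at -2.13 and -2.25, since LIRKO 1 lay only 0.38 below the Flox mean, and without LIRKO 1 it passed as lower (adjusted p = 1.4e-05 from limma). *Sult1c1* overlapped between the groups, with a log2 fold change of 0.08, a difference of -0.22 on LIRKO 1, and -0.03 after cyclic loess. Without LIRKO 1, 3 of the 4 probe sets passed, all but *Sult1c1*, against 49.1% of all.

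The pattern of *Sult1d1* over the 6 arrays was compared with that of 10832 probe sets that carry 1 other gene symbol, as the root mean square distance between values taken relative to each probe set's Flox mean. The nearest was *Igfbp2*, whose product binds insulin-like growth factors, at a distance of 0.15, with differences from Flox of 1.62, 1.18 and 1.22 on LIRKO 1, LIRKO 2 and LIRKO 3. Then came *Lpl*, which encodes lipoprotein lipase, at 0.23, and *Il1rn*, which encodes the interleukin 1 receptor antagonist, at 0.27. *Sult2a2* was the fourth, at 0.31, and *Cyp2b13*, a cytochrome P450 gene, the fifth, at 0.32. The 5 were picked for nearness to *Sult1d1*, so that differences like its own follow from the choice. For each of the 5 every LIRKO array was higher than every Flox array, which held for 9.84% of all probe sets. Their log2 fold changes lay between 1.10 and 1.55, against 1.40 for *Sult1d1*. After cyclic loess *Lpl* was at rank 1, *Sult2a2* at 3, *Il1rn* at 4 and *Cyp2b13* at 5. *Igfbp2*, a bright probe set at percentile 98.6 in Flox, went to rank 836, with a log2 fold change of 2.31. The likeness rests on 6 arrays that share 1 contrast.

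**Figure D3:**
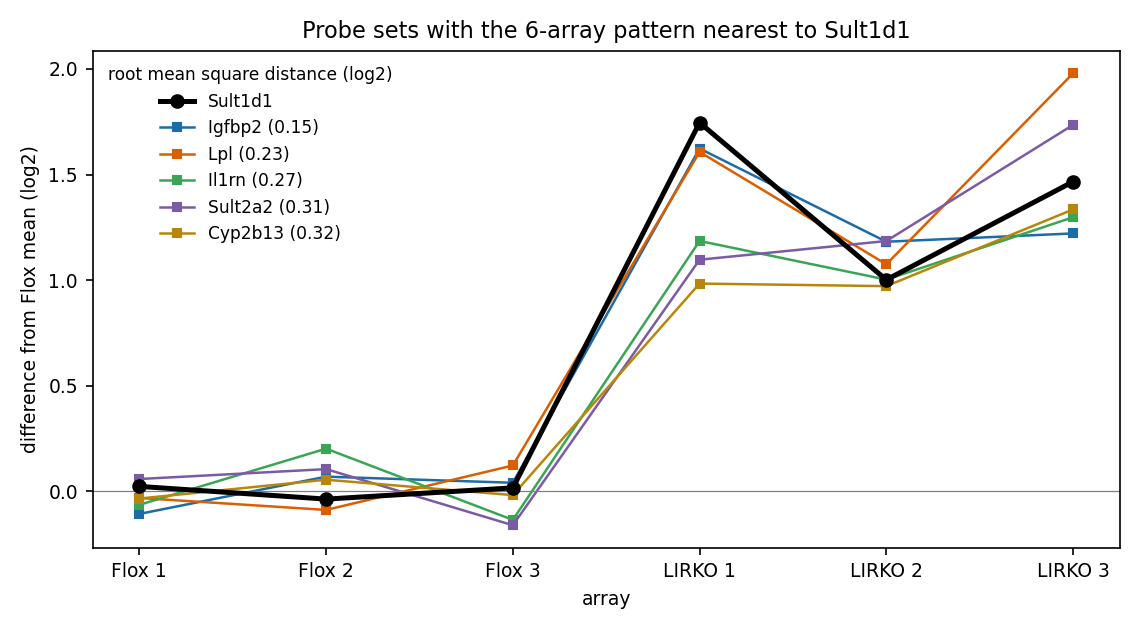
Difference from the Flox mean (log2, vertical axis) on each of the 6 arrays (horizontal axis) for *Sult1d1*, in black, and the 5 probe sets nearest to it; lines only join the points of 1 probe set, and the legend gives the root mean square distance. All lie near 0 on the Flox arrays and between 0.97 and 1.98 on the LIRKO arrays.

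The enzymes and transporters that supply PAPS and remove its product did not move together. Of 9 probe sets for 8 measured genes, none passed in either direction in limma (2 at an unadjusted p under 0.05, against 20.9% of all probe sets), the median log2 fold change was -0.27, and the medians on LIRKO 1, LIRKO 2 and LIRKO 3 were -0.03, -0.29 and -0.22. *Slc35b2*, which carries PAPS into the Golgi, read 8.47, 8.47 and 8.37 on the Flox arrays and 8.06, 7.54 and 7.28 on the LIRKO arrays. Every LIRKO array was lower, with a mean difference of -0.81 with a standard error of 0.204 (adjusted p = 0.237 from limma). That difference was -0.65 after cyclic loess, and probe sets of its level had medians of -0.47 and -0.38 on LIRKO 2 and LIRKO 3. *Papss1*, a PAPS synthase gene, was also lower on every LIRKO array, at -0.33, -0.27 and -0.22, with a log2 fold change of -0.27 (adjusted p = 0.247 from limma). *Slc26a1*, a sulfate transporter gene, was -0.64 from Flox on average (adjusted p = 0.238 from limma) and a difference of -0.01 on LIRKO 1. *Papss2*, the other PAPS synthase gene, was not picked by the smallest unadjusted p and is likewise named after its values were seen. It read 7.56, 7.52 and 7.90 on the Flox arrays and 8.56, 7.37 and 8.07 on the LIRKO arrays. LIRKO 1 was thus 0.90 above Flox and LIRKO 2 was 0.29 below (adjusted p = 0.474 from limma). Without LIRKO 1, 4 of the 9 passed, all as lower, against 49.1% of all probe sets in either direction (2783 of 12422 as higher, 3312 as lower). The 4 were *Slc35b2*, *Slc26a1* and, also named after their values were seen, *Cdo1*, of cysteine breakdown, and *Bpnt2* on 95457_at, of PAPS product removal. On LIRKO 1, *Cdo1* differed from Flox by 0.08 and *Bpnt2* on 95457_at by 0.0450, and the mean difference of -0.71 for *Cdo1* was 0.17 after cyclic loess. The other *Bpnt2* probe set, 95458_s_at, did not pass, at -0.08 on LIRKO 1 and at 0.28 and 0.32 on LIRKO 2 and LIRKO 3.

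Sulfotransferases of the Golgi act on proteins and sugar chains, and sulfatases remove sulfate again. Of 10 probe sets for 8 measured Golgi sulfotransferases and 7 probe sets for 4 genes of the sulfatase list, none passed in either direction in limma (2 at an unadjusted p under 0.05 in each list, against 20.9% of all probe sets). The median log2 fold changes were 0.11 and 0.07, and on LIRKO 1 the medians were -0.07 and -0.02. *Chst3*, a chondroitin sulfotransferase gene, was lower on every LIRKO array, at -0.31 on average (adjusted p = 0.237 from limma), -0.18 on LIRKO 1 and -0.15 after cyclic loess. Probe sets of its level had medians of -0.25 and -0.16 on LIRKO 2 and LIRKO 3. *Ndst2*, which encodes an enzyme of heparan sulfate, had a log2 difference of 0.77 on 161336_r_at and of -0.27 on 92400_at (the lower adjusted p = 0.237 from limma), so that its probe sets disagreed. On LIRKO 1 the first differed by 0.02, against 1.25 and 1.03 on LIRKO 2 and LIRKO 3, and the second by -0.28, with -0.13 after cyclic loess. *Arsa*, which encodes arylsulfatase A, a lysosomal sulfatase, read 7.67, 7.36 and 7.67 on the Flox arrays and 7.13, 5.82 and 6.26 on the LIRKO arrays (probe set 100931_at). Every LIRKO array was lower, with a mean difference of -1.17, a standard error of 0.321 (adjusted p = 0.237 from limma) and a difference of -0.44 on LIRKO 1. Its dimmer probe set 161286_f_at was lower on every LIRKO array too, at -0.33 on average and -0.29 on LIRKO 1. For *Ids*, the lysosomal iduronate sulfatase gene, the dim probe set 99884_at differed by 0.39 (adjusted p = 0.239 from limma), with a difference of 0.07 on LIRKO 1. Its brighter probe set 99883_g_at was at -0.19 on LIRKO 1 and at 0.94 and 0.69 on LIRKO 2 and LIRKO 3. The other dim probe set, 99882_at, differed by 0.17 on average and by 0.14 on LIRKO 1. Without LIRKO 1, 4 of the 10 Golgi probe sets (3 higher, 1 lower) and 4 of the 7 of the sulfatase list (2 higher, 2 lower) passed, against 49.1% of all probe sets.

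**Figure D4:**
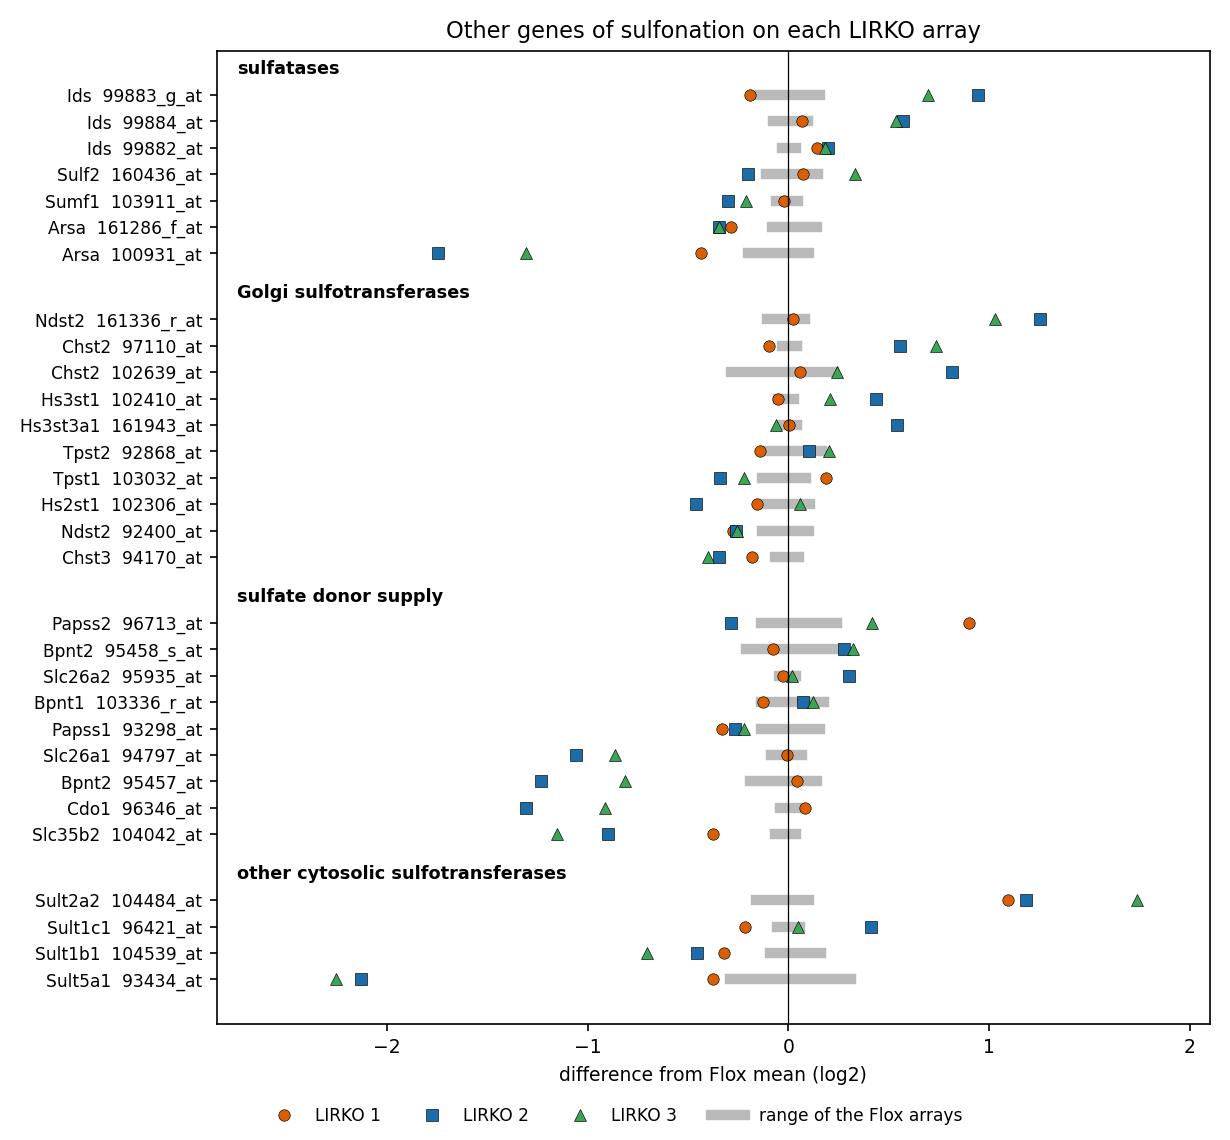
Difference of each LIRKO array from the Flox mean (log2, horizontal axis) for every measured probe set of 4 lists; symbols are single LIRKO arrays and grey bars are the range of the Flox arrays. For *Sult2a2* all LIRKO arrays lie between 1.10 and 1.74, whereas for *Slc26a1* LIRKO 1 lies at -0.01 and the other LIRKO arrays at -1.06 and -0.86.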

How the data were processed

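Liver RNA of 3 Flox and 3 LIRKO pools had been hybridized to 6 single-colour Affymetrix arrays. The deposited values are log2 expression values, which the authors made in R with the affy and limma packages by robust multichip averaging (background correction, normalization between arrays and a summary of the probes of each probe set). RMA is also named in the submitters' processing notes, and the versions, and whether all 6 arrays were normalized together, are not given in the sources used here. Such a summary compresses differences at low signal, and no detection calls or probe intensities were used here. Groups came from the genotype in the labels.

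The table held 12488 probe sets, of which 66 array controls were left out and 12422 tested. The platform annotation gave 1 symbol to 10833, several to 396 and none to 1193. LIRKO was compared with Flox on the deposited values with limma 3.58.1 in R 4.3.3, in 1 fit over all 6 arrays with Benjamini-Hochberg adjustment over all tested probe sets and a threshold of 0.05 on the adjusted p. The fit was checked on simulated data with known changes. A probe set was called dim when its mean over 6 arrays was under the 40th percentile, at 6.15. Named were all probe sets of the sulfotransferases studied, from each other list the up to 3 with the smallest unadjusted p, and the 5 nearest patterns to *Sult1d1*. The genes and lists were chosen with earlier results of these data known. Alternatives were renewed quantile normalization, cyclic loess, leaving out dim probe sets, a trended and robust variance, an unequal-variance t-test, a replicate block, Bonferroni adjustment, leaving out each array, and LIRKO 1 against the Flox arrays. The methods give that t-test for mouse measurements in general, and limma for the arrays. Promoters came from RefSeq (GRCm38.p6).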

Additional observations from a re-analysis of the deposited data

How the results depend on the processing

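Over all probe sets, 16 passed with all 6 arrays in limma (9 higher, 7 lower), 40 after cyclic loess (23 higher, 17 lower), 23 after renewed quantile normalization (15 higher, 8 lower), 2 with Bonferroni adjustment, 0 by the methods' t-test (728 at an unadjusted p under 0.05, against 2602 in limma) and 90 for LIRKO 1 against the Flox arrays, where the lone array is assumed to vary like Flox. With 1 array left out the count went from 2, without LIRKO 2, to 6095, without LIRKO 1, and was 5 without Flox 1 and 3 without Flox 2, Flox 3 or LIRKO 3. The causes were not tested. Of the 6 sulfotransferase probe sets, 0 passed with all arrays, 1 (*Sult1d1*) after cyclic loess and after quantile normalization, and 0 to 5 with 1 array left out, the 5 (4 higher, 1 lower) without LIRKO 1. On LIRKO 1 alone the direction reversed for *Sult1a1* on 103087_at (0.64), *Sult1a1* on 162130_r_at (-0.0832) and *Sult2b1* (-0.0494), and no other alternative reversed a member. *Sult1d1* lay between 1.23 and 1.75 over its 14 alternatives. Several of these cannot change a fold change here and left it at 1.40. They were leaving out dim probe sets, the trended and robust variance, the t-test, the replicate block and Bonferroni adjustment. Leaving out dim probe sets gives no value for 3 of the 6.

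Array numbers are shared between the groups, but nothing in the labels ties equal numbers to a shared origin, and the deviations of same-numbered arrays correlated at 0.32, 0.40 and 0.09. With a replicate block 11 probe sets passed in all and 0 of the 6 members, and LIRKO 3 alone among the LIRKO arrays did not correlate best with its own number.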

Other observations

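A list of 17 receptors and transcription factors known to regulate sulfotransferase genes had 24 probe sets for 16 measured genes. None passed in either direction in limma (6 at an unadjusted p under 0.05, against 20.9% of all probe sets). The median log2 fold change was -0.24, but the medians on LIRKO 1, LIRKO 2 and LIRKO 3 were 0.02, -0.55 and -0.05. On LIRKO 1, 14 of the 24 lay above the Flox mean. *Ppara*, the fatty acid receptor, read 8.71, 9.02 and 9.24 on the Flox arrays and 8.190, 7.996 and 8.010 on the LIRKO arrays. Every LIRKO array was lower, including LIRKO 1 at -0.80, and the mean difference was -0.93 with a standard error of 0.161 (adjusted p = 0.223 from limma). That difference was -0.66 after cyclic loess, and probe sets of the *Ppara* level had medians of -0.47 and -0.38 on LIRKO 2 and LIRKO 3. *Nr1h4*, the bile acid receptor FXR, was lower on every LIRKO array too, at -0.25 on LIRKO 1 and -0.63 on average (adjusted p = 0.237 from limma), and the mean difference was -0.36 after cyclic loess. Probe sets of its level had medians of -0.47 and -0.38 on LIRKO 2 and LIRKO 3. *Cebpa*, a hepatocyte transcription factor, was at -0.33 on LIRKO 1 and at -2.003 and -1.14 on LIRKO 2 and LIRKO 3, where probe sets of its level had medians of -1.09 and -0.89 (adjusted p = 0.237 from limma). Its mean difference of -1.16 was -0.34 after cyclic loess. Without LIRKO 1, 14 of the 24 probe sets passed, 3 as higher and 11 as lower, against 49.1% of all probe sets.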
